A study of Mus musculus with 119 samples.

Results

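The netrin-G proteins and their ligands are followed here through 5 genes, Ntng1, Ntng2, Lrrc4, Lrrc4b and Lrrc4c, of the 55291 genes counted in each of 119 mouse brain libraries. The genes are listed by name, as both netrin-G genes and the 3 genes of the ligand family. Ntng2 was chosen by its higher level in the THC libraries than in the vehicle libraries of the female amygdala, so every value of that comparison, counts of genes past a threshold included, is given as a description that supports nothing. Female and male mice were injected intraperitoneally each day with THC at 10 mg/kg, or with vehicle alone, from postnatal day 28 to 48, and behavioural testing began on day 63, before tissue was taken. Punches came from 5 regions, the amygdala (Amy), the ventral tegmental area (VTA), the prefrontal cortex (PFC), the dorsal medial striatum (DMS) and the nucleus accumbens (NAc). Each region, sex and treatment had 6 libraries, except the VTA of vehicle-treated males with 5. All mice were of 1 strain, which the labels give as C57BL/6J at 11 weeks and the methods as C57BL/6NCrl, and what is called DMS here is labelled dorsolateral striatum. A library holds 1 region of 1 mouse, and the labels do not say which libraries share a mouse. The methods describe 5 regions collected from sliced brains, so libraries of different regions can come from the same mice, and the tests between regions treat them as independent.

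Netrin-G1, encoded by Ntng1, and netrin-G2, encoded by Ntng2, are relatives of the netrins that are tethered to the surface of axons by a lipid anchor, and unlike the secreted netrins they do not act through DCC or UNC5 receptors. Their partners are transmembrane proteins with leucine-rich repeats on the dendritic side of excitatory synapses. The product of Lrrc4c binds netrin-G1, that of Lrrc4 binds netrin-G2, and that of Lrrc4b binds receptor phosphatases of the LAR family instead. The ligands end in a short tail that binds PSD-95, the scaffold protein of the postsynaptic density. The classical picture in brain is that netrin-G1 marks axons from thalamus and other subcortical sources and netrin-G2 axons of cortical and other forebrain neurons, each placing its ligand on a different stretch of the same dendrites.

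In the GENCODE vM21 annotation of GRCm38, the build the submitters' notes call mm10, Ntng1 lies on the minus strand of chr3:109780040-110144011 and Ntng2 on the minus strand of chr2:29194541-29253005. Lrrc4c occupies the plus strand of chr2:96318169-97631666 and Lrrc4b the plus strand of chr7:44429018-44463351. Lrrc4 lies on the minus strand of chr6:28661831-28831747, inside Snd1 on the opposite strand, and the libraries were made with a kit that marks strand. The coding sequences of Ntng1 and Ntng2 were identical at 64.6% of 1575 aligned bases, and those of the 3 ligand genes at 63.1% to 65.8%. The longest run of identical bases between 2 members of a family was 21, shorter than a read of 100 bases. The last 45 coding bases before the stop codon are shown for the ligand genes because they encode the shared tail, with the last 4 codons in capitals.
Lrrc4, chr6:28829659-28829703, minus strand: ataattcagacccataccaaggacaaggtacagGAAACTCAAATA
Lrrc4b, chr7:44462788-44462832, plus strand: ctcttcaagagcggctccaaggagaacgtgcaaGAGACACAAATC
Lrrc4c, chr2:97630906-97630950, plus strand: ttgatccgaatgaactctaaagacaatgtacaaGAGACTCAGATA
Over the 12 bases in capitals, Lrrc4 differed from Lrrc4c at 2 bases, and Lrrc4b differed from each of the other two at 3. Every one of these differences fell on the third base of a codon.

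The Ntng2 row needs a second sequence to be read. The first coding exon of Ntng2, chr2:29247828-29248040 on the minus strand, lies whole inside an exon of 6530402F18Rik, a noncoding gene at chr2:29245107-29253006 on the same strand. Its 213 bases are shown with the start codon in capitals.
Ntng2, first coding exon: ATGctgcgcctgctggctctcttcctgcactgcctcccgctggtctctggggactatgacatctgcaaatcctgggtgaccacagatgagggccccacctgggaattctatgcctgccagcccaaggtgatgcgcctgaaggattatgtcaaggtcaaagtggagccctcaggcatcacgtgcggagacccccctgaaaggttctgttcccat
In all, 558 exon bases are common to both genes, 10.1% of the annotated exon bases of 6530402F18Rik. The deposited values are expected counts, in which the program RSEM divides a read that fits 2 genes between them. The count of Ntng2 was not a whole number in any of the 119 libraries, while its sum with 6530402F18Rik was whole in all 119 to within 0.011. The other 4 genes had whole counts in all 119 libraries. The share of 6530402F18Rik in the sum ran from 28.8% to 61.3% with a median of 43.5%, which includes reads from its own exons. Part of what is listed as Ntng2 rests on the division, in an amount that the counts do not show.

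Libraries held between 3090998 and 77042133 counts, with a median of 22092612. The shallowest was male VTA vehicle library FTL_371, in which the members had between 62 (Ntng2) and 667 (Lrrc4b) counts. Over all libraries the median count was 422 for Ntng1, 1273 for Lrrc4, 2883 for Lrrc4c and 4033 for Lrrc4b. Levels are given as CPM, the counts of a gene relative to the total of its library after TMM scaling over all libraries. To be called, a gene needed a false discovery rate (FDR) under 0.05, over all genes tested, together with a log2 fold change of 0.4 or more in either direction, and all 5 members passed the filter on low counts in every comparison. Region labels went with their markers in the vehicle libraries. Markers of projection neurons, of cortex and basolateral amygdala (Slc17a7, Tbr1, Neurod2 and others), were summed and were highest in the PFC, at 5863 to 6786 CPM, against 242 to 475 CPM in the VTA. Those of medium spiny neurons (Ppp1r1b, Drd1, Drd2 and others) were highest in the DMS, at 5960 to 9923 CPM, and those of dopaminergic neurons (Th, Slc6a3, Slc18a2 and others) in the VTA, at 2254 to 5854 CPM. In 2 amygdala libraries the sex genes went against the label. Library FTL_344, labelled female THC, had 0.293 CPM of Xist and 139 CPM summed over 4 Y-linked genes, and library FTL_356, labelled male THC, had 489 and 0.371 CPM. The other 59 libraries labelled female had at least 236.5 CPM of Xist and the other 58 labelled male at most 3.35 CPM. Both are kept as labelled, and the main results of the members in the Amy that use them are followed by values without them.

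The regional comparison asks where in the brain each partner is expressed in animals that received vehicle. Among vehicle libraries the netrin-G genes had different maps. Ntng2 was highest in the PFC, at 29.0 ± 2.61 CPM (SD, n = 12), followed by the VTA at 16.4 ± 2.94 CPM (n = 11), the Amy at 12.01 ± 2.12 CPM, the NAc at 9.68 ± 1.28 CPM and the DMS at 4.60 ± 0.968 CPM (n = 12 each). The lowest PFC library, at 24.95 CPM, stood above the highest VTA library, at 21.6 CPM, and the highest DMS library, at 7.22 CPM, stood below the lowest NAc library, at 7.56 CPM. The PFC and DMS differed by a log2 fold change of 2.63 (SE 0.10, edgeR adjusted p = 1.37e-33), the widest regional difference of any member in the counts as deposited. With the counts of 6530402F18Rik added to those of Ntng2, a choice made after the data were seen, this difference was 2.12 (SE 0.08), narrower than the widest of Ntng1. That sum also counts reads from exons that only 6530402F18Rik has. Ntng1 was highest in the VTA, at 58.7 ± 11.3 CPM, and then came the Amy at 37.0 ± 6.04 CPM, the PFC at 19.8 ± 2.10 CPM, the NAc at 16.2 ± 2.78 CPM and the DMS at 11.6 ± 1.69 CPM. Its lowest VTA library, at 44.9 CPM, lay within the range of the Amy libraries, which reached 48.0 CPM, but above all libraries of the other 3 regions. The DMS and VTA differed by -2.31 on the log2 scale (SE 0.10, edgeR adjusted p = 1.75e-30).

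Each netrin-G gene was called in 9 of the 10 region pairs. For Ntng2 the pair not called was the NAc and Amy, with a log2 fold change of -0.29 (95% interval -0.46 to -0.11) that passed the FDR but not the fold threshold. With summed counts the same 9 pairs were called, and the NAc and Amy differed by -0.13 (SE 0.08, edgeR adjusted p = 0.168). For Ntng1 it was the PFC and NAc, at 0.28 (0.10 to 0.46). Between the PFC and the VTA the pair moved in opposite directions. Ntng2 was higher in the PFC by 0.84 (SE 0.09, edgeR adjusted p = 7.74e-13), and Ntng1 was lower there by a log2 fold change of -1.57 (SE 0.09, adjusted p = 3.23e-23). Both were lowest in the DMS. The female Amy vehicle libraries that entered the choice of Ntng2 are also among the 12 Amy libraries of this comparison.

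Of the ligand genes, Lrrc4, the partner of netrin-G2, and Lrrc4c, the partner of netrin-G1, were both highest in the PFC and lowest in the VTA. Lrrc4 had 96.8 ± 5.01 CPM in the PFC, 59.04 ± 4.78 CPM in the DMS, 58.5 ± 4.25 CPM in the Amy, 53.4 ± 2.30 CPM in the NAc and 29.9 ± 3.06 CPM in the VTA. All PFC libraries stood above all others, from 88.5 CPM upwards against at most 66.6 CPM, and all VTA libraries stood below, at no more than 35.2 CPM. The DMS, Amy and NAc were not called against each other, with absolute log2 fold changes of 0.06 to 0.15. Lrrc4c had 155 ± 8.88 CPM in the PFC and 150 ± 9.54 CPM in the DMS, which differed by 0.03 (95% interval -0.07 to 0.12), then 113 ± 10.1 CPM in the NAc, 86.8 ± 7.13 CPM in the Amy and 48.5 ± 5.25 CPM in the VTA. The drop from the PFC to the VTA was of the same size in both genes, 1.68 on the log2 scale (SE 0.04 for Lrrc4 and 0.05 for Lrrc4c, edgeR adjusted p = 6.31e-41 and 7.43e-38). In the PFC and DMS, where Lrrc4c was highest, Ntng1, the gene of its partner, was at 0.337 and 0.201 times its VTA level.

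Lrrc4b, whose product does not bind netrin-G proteins, was the most even of the 5 genes. It ran from 184 ± 6.67 CPM in the PFC and 185 ± 8.05 CPM in the DMS, through 208 ± 19.5 CPM in the VTA and 229 ± 17.5 CPM in the NAc, to 235 ± 12.6 CPM in the Amy. It was called in 0 of 10 pairs by edgeR and by DESeq2. In 8 pairs the unadjusted p was under 0.05 and the FDR was passed, but not the fold threshold, and its widest log2 fold change was -0.34 (SE 0.04) between the PFC and Amy. Its highest region mean was 1.28 times the lowest, against 3.24 times for Lrrc4, 3.20 times for Lrrc4c, 5.05 times for Ntng1 and 6.31 times for Ntng2.

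**Figure D1:**
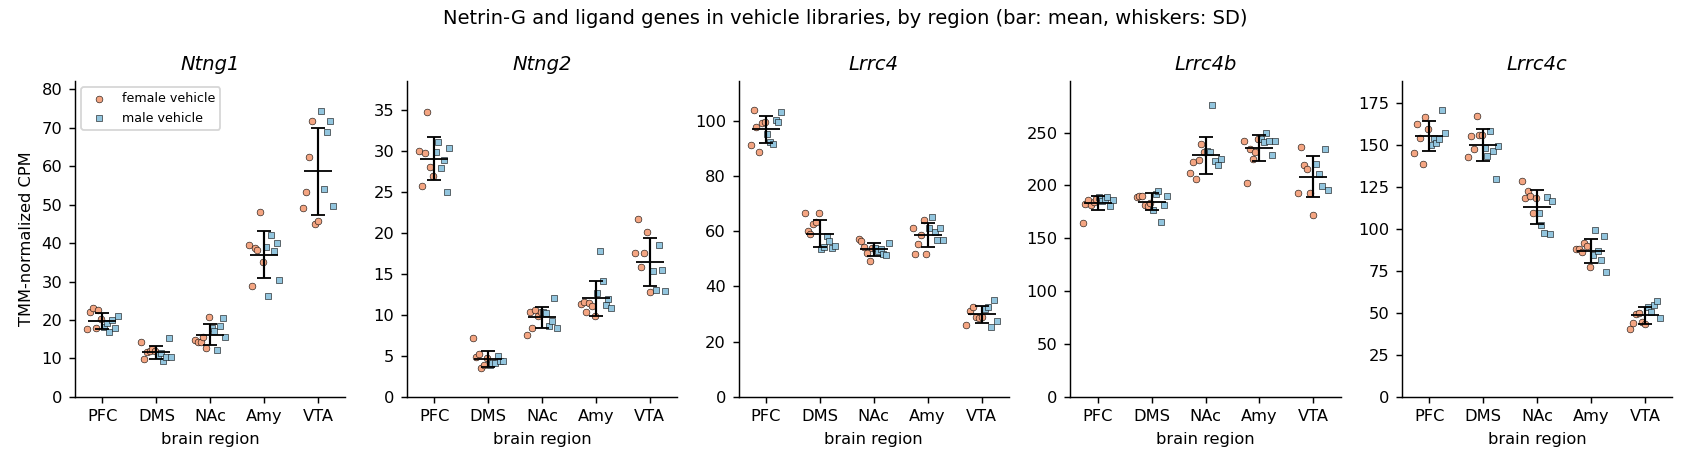
TMM-normalized CPM (vertical axis, from 0) of each member in the vehicle libraries of the 5 regions (horizontal axis), with circles for female and squares for male libraries, a bar for the mean and whiskers for the SD. Ntng2 peaks in the PFC and Ntng1 in the VTA, Lrrc4 and Lrrc4c fall from the PFC to the VTA, and Lrrc4b stays between 164.5 and 276.2 CPM.

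Regional differences were common in these data, which sets the scale for the calls. Members called numbered 3 of 5 between the PFC and DMS, where 49.2% of the 17712 genes tested were called, 3 between the PFC and NAc (45.2%), 4 between the PFC and Amy (37.4%) and 4 between the PFC and VTA (55.0%). The DMS gave 3 against the NAc (30.7%), 3 against the Amy (43.0%) and 4 against the VTA (57.6%). The NAc gave 2 against the Amy (24.8%) and 4 against the VTA (52.1%), and the Amy gave 4 against the VTA (43.4%). The members were thus called in 34 of 50 cases, and all 34 came from the 4 genes other than Lrrc4b. PFC and DMS counts are in one deposited table and those of the other regions in another, so differences across the tables include any difference between them. In tissue punches, fewer cells of a type and less RNA per cell cannot be told apart. Other cell types also varied by region, with summed oligodendrocyte markers (Mbp, Mog, Mag and others) at 10380 to 19370 CPM in the VTA and 1827 to 4508 CPM in the PFC, and their part in the members' differences was not tested.

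Levels of different genes can be set side by side only per length. Divided by the annotated exon length of each gene, Lrrc4b had the highest mean of the ligand genes in every region, at 62.7 CPM per kb in the PFC and 80.4 CPM per kb in the Amy. Lrrc4c followed at 33.6 CPM per kb in the PFC and 10.5 CPM per kb in the VTA, and Lrrc4 at 24.2 and 7.47 CPM per kb. The means of the netrin-G genes were lower than those of the ligand genes in all regions. Ntng2 had 7.28 ± 0.654 CPM per kb in the PFC and Ntng1 2.40 ± 0.255 CPM per kb there, while in the VTA Ntng1 had 7.12 ± 1.37 CPM per kb and Ntng2 4.12 ± 0.738 CPM per kb. Axons carry the netrin-G proteins away from the cells that make the RNA, and protein was not measured.

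The makeup of each family was then expressed as a share of its counts, which does not depend on the scaling of a library. The share of Ntng2 in netrin-G counts was 59.5% ± 3.58 for the PFC, 37.7% ± 3.52 for the NAc, 28.3% ± 4.07 for the DMS, 24.8% ± 5.50 for the Amy and 22.2% ± 4.52 for the VTA (SD, n = 12, and 11 in the VTA). In the PFC every library held more Ntng2 than Ntng1 counts, with a lowest share of 53.8%, and in the other regions none did, with a highest share of 43.6%. The share differed in 8 of 10 region pairs (two-sided permutation test with 100000 resamples, adjusted over the 10 pairs). The 4 pairs with the PFC, and the NAc against the DMS, Amy and VTA, reached a permutation p of 2e-05, the smallest that these resamples can give (adjusted 2.86e-05). The DMS and VTA differed by 6.18 points (permutation p = 0.00352, adjusted 0.0044). The 2 pairs that did not differ at this threshold were the DMS and Amy (3.55 points, permutation p = 0.0855, adjusted 0.0950) and the Amy and VTA (2.63 points, permutation p = 0.232, adjusted 0.232). The Amy libraries include the female vehicle libraries that entered the choice of Ntng2, with a mean share of 22.6% against 27.0% in male vehicle libraries. The p-values of the Amy pairs thus rest in part on values that chose it.

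Part of these shares rests on how reads that fit both Ntng2 and 6530402F18Rik were divided. The counts do not show how many reads that was, since most exon bases of each gene are its own. The level of 6530402F18Rik relative to Ntng2 also varied by region. Among vehicle libraries 6530402F18Rik made up on average 33.6% of the sum of both genes in PFC tissue, 39.8% for the Amy, 44.5% for the VTA, 46.1% for the NAc and 53.7% for the DMS. The sum also holds reads of 6530402F18Rik alone, so it is an upper limit for Ntng2 and can only raise its share. With the sum in place of Ntng2, its share of the total with Ntng1 was 68.8% ± 3.12 for PFC libraries, 52.8% ± 3.86 for those of the NAc, 46.0% ± 3.51 for the DMS, 35.2% ± 6.34 for the Amy and 33.8% ± 5.74 for the VTA. The order of the regions stayed as it was, but at this upper limit the PFC did not stand alone above 50%. All 12 PFC libraries exceeded it, as did 10 of 12 NAc libraries, 1 of 12 DMS libraries, 1 of 12 Amy libraries and 0 of 11 VTA libraries. The DMS and Amy then differed by 10.8 points (permutation p = 0.00016, adjusted 0.000178), and the Amy and VTA were the 1 pair of 10 that did not differ at the threshold (1.44 points, permutation p = 0.590, adjusted 0.590). The same limit on the Amy pairs holds for these tests.

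Of the counts of the 3 ligand genes, Lrrc4b made up 42.2% ± 1.34 (PFC), 46.9% ± 1.77 (DMS), 57.8% ± 3.10 (NAc), 61.8% ± 2.19 (Amy) and 72.6% ± 1.504 (VTA). The shares of the 3 genes add to the whole. Lrrc4c went from 35.6% in the PFC and 38.1% in the DMS to 16.9% in the VTA, and Lrrc4 from 22.2% in the PFC to 10.4% in the VTA. No test was made of these ligand shares between regions.

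**Figure D2:**
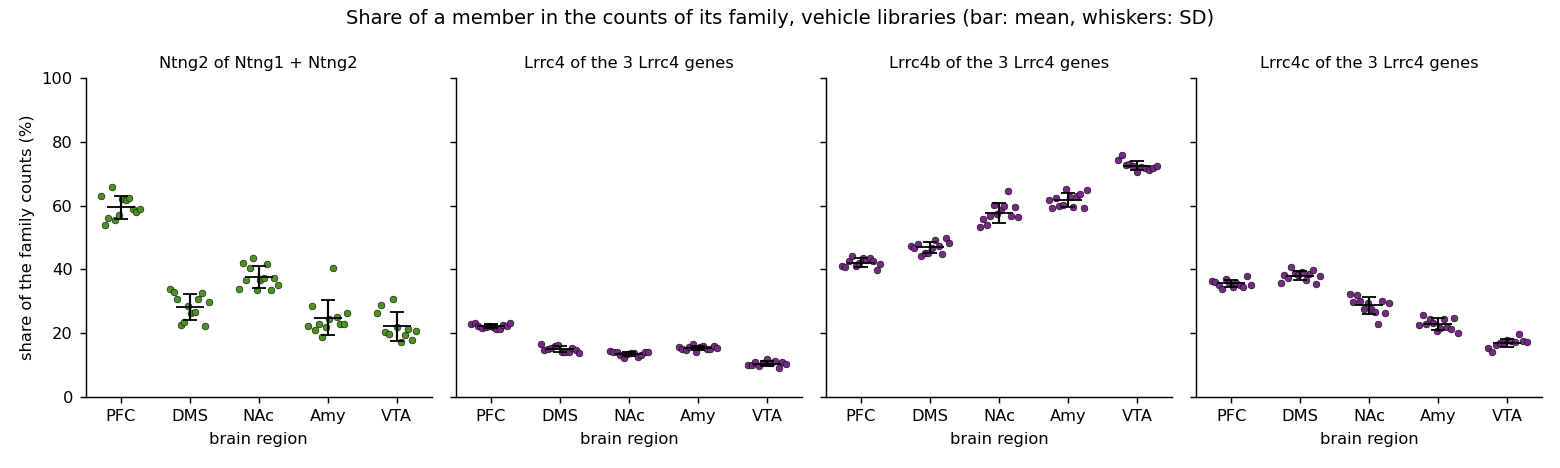
Share of each member in the counts of its own family (vertical axis, percent, 0 to 100) in the vehicle libraries of the 5 regions, with 1 point a library, a bar for the mean and whiskers for the SD. With the counts as deposited Ntng2 exceeds 50% of netrin-G counts in the PFC libraries alone. This does not hold once all counts of 6530402F18Rik, most of whose exon bases lie outside Ntng2, are added. The share of Lrrc4b climbs from 42.2% in the PFC to 72.6% in the VTA.

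The genes whose log2 CPM followed each member most closely over the 119 libraries were found among 14869 other genes, as a description in which the points share their regions. The nearest genes to Ntng2 were Gm49654 (Pearson r = 0.964), Gabbr2 (0.960), Tmem151b (0.959), Stac2 (0.957) and Efhd2 (0.955). Nearest to Ntng1 were Glra1 (0.955), Ehd4 (0.946), Tspyl4 (0.945), Unc119 (0.944) and Klhdc8a (0.939). For Lrrc4 they were Fam171b (0.979), Kalrn (0.978), Map9 (0.976), R3hdm1 (0.975) and Mef2c (0.972), and for Lrrc4c they were Chn1 (0.979), Septin11 (0.979), Fam49b (0.976), Cap2 (0.975) and Tmem68 (0.973). Lrrc4b had looser matches, led by Slc22a17 (0.930), Maged1 (0.911), Pnmal2 (0.907), Vac14 (0.892) and Hap1 (0.890). Gabbr2 encodes a subunit of the GABA-B receptor, Glra1 a subunit of the glycine receptor, and Mef2c a transcription factor that is also among the projection neuron markers. Among the members themselves, Lrrc4 and Lrrc4c ran together (r = 0.863), whereas Ntng1 and Lrrc4c, whose products bind each other, ran in opposite directions over the libraries (r = -0.850). Ntng2 and Lrrc4, the other binding pair, had r = 0.274. After the mean of each region, sex and treatment group was removed, r was 0.538 for Lrrc4 with Lrrc4c, 0.237 for Ntng1 with Lrrc4c and -0.106 for Ntng2 with Lrrc4. The opposite running of Ntng1 and Lrrc4c was thus one between groups and not within them.

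Other genes of the pathway also differed between regions. Of 9 genes whose products bind or modify the ligands, among them the LAR family phosphatases Ptprf, Ptprd and Ptprs and the scaffold genes Dlg1 to Dlg4, between 2 and 7 were called in a region pair. Of 11 genes of the classical netrins and their receptors, 6 to 9 were called. Of 18 genes of other synaptic adhesion proteins with leucine-rich repeats, the Lrrtm, Slitrk, Flrt and Lrfn families, 7 to 15 were called. Over all genes, 24.8% (NAc and Amy) to 57.6% (DMS and VTA) were called in a pair. The 3 lists gave 22.2%, 63.6% and 44.4% between the NAc and Amy. Between the PFC and DMS they gave 44.4%, 72.7% and 72.2%, where 49.2% of all genes were called. Between the PFC and VTA, where 55.0% of all genes were called, the lists reached their highest counts. These were 7 of 9 (6 higher in the PFC), 9 of 11 (3 higher in the PFC) and 15 of 18 (14 higher in the PFC). The median log2 fold changes of the lists between the PFC and VTA were 0.95, -0.41 and 0.84, beside -0.03 over all genes tested.

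The comparison of THC with vehicle asks whether exposure in early adolescence left a change in the brain after it had ended. Outside the female Amy, 0 of 45 member values were called by edgeR, and 0 by DESeq2, while 6 (13.3%) had an unadjusted p under 0.05. Over all genes the share with an unadjusted p under 0.05 ran from 1.84% (male Amy) to 16.7% (male NAc) in these comparisons. The share of all genes called was 0% in the female PFC, male PFC, male DMS, female NAc, male NAc, male Amy, female VTA and male VTA, and 0.0127% (2 genes) in the female DMS. No member value reached an absolute log2 fold change of 0.4. Lrrc4b moved least, between -0.08 and 0.04, and Ntng1 most, between -0.19 and 0.37. The Ntng1 value of 0.37 (SE 0.15, 95% interval 0.07 to 0.66, edgeR adjusted p = 0.521) came from the female VTA, where vehicle libraries ran from 44.9 to 71.7 CPM and THC libraries from 51.8 to 87.5 CPM. The groups overlapped, and 3 of the 6 THC libraries stood above all vehicle libraries.

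The remaining values with an unadjusted p under 0.05 were small. Lrrc4 in the female DMS was at 62.9 ± 3.20 CPM with vehicle and 56.9 ± 1.85 CPM with THC, a log2 fold change of -0.14 (SE 0.04, edgeR adjusted p = 0.291). Lrrc4c was at 0.16 (SE 0.06, adjusted p = 0.227) in the male NAc and at 0.18 (SE 0.07, adjusted p = 0.512) in the female VTA. In that last group its THC library FTL_363 had 62.2 CPM against 47.1 to 51.5 CPM in the other 5. Ntng2 in the male DMS, where its level was lowest, was at 4.32 ± 0.375 CPM with vehicle and 5.06 ± 0.597 CPM with THC, a log2 fold change of 0.24 (SE 0.10, adjusted p = 1). Lrrc4b in the male PFC was at -0.08 (SE 0.03, adjusted p = 1). The intervals still allowed changes of up to 0.66 for Ntng1 and 0.47 for Ntng2, but of no more than 0.32 for the ligand genes.

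**Figure D3:**
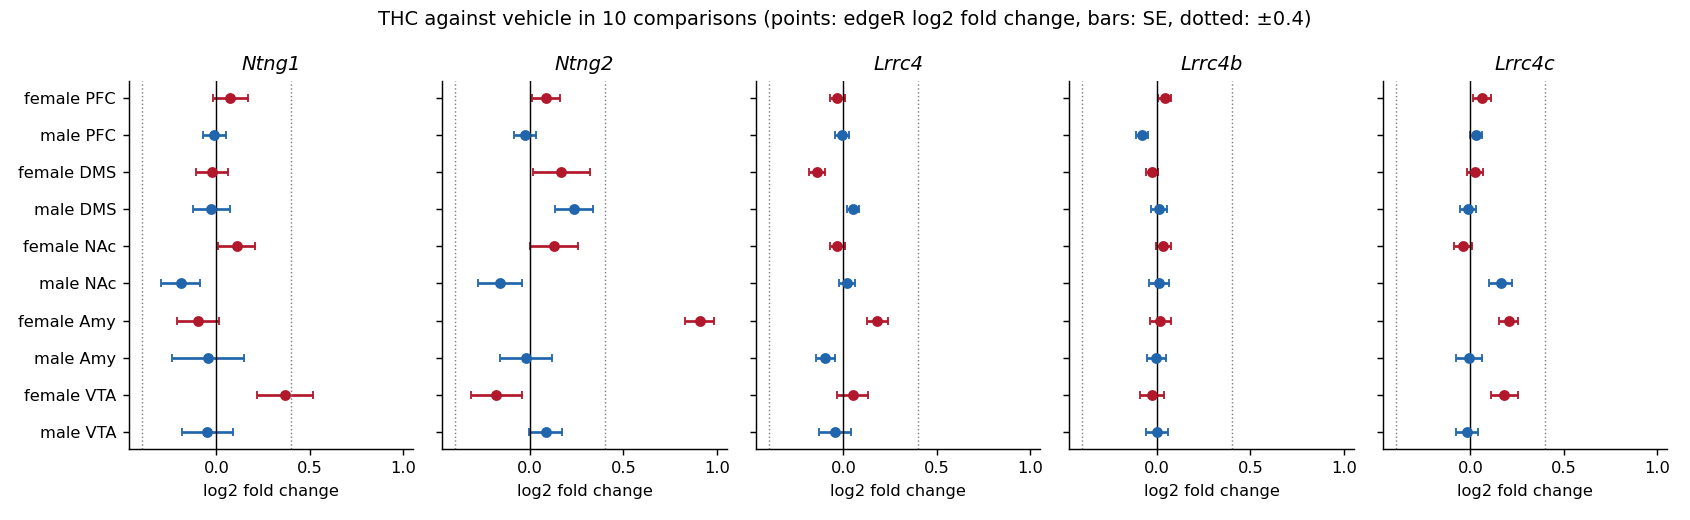
Log2 fold change of THC against vehicle (horizontal axis, points, with bars of 1 SE) for each member in the 10 comparisons (rows), red for female and blue for male libraries, with dotted lines at ±0.4. Ntng2 in the female Amy, at 0.91, lies past the dotted line, and the other 49 values lie between the lines.

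In the female Amy, the comparison that selected Ntng2, its 6 vehicle libraries had 11.4, 11.5, 10.3, 11.5, 11.1 and 9.89 CPM, a narrow band. The 6 THC libraries had 21.3, 19.1, 19.3, 22.8, 17.8 and 23.6 CPM. Every THC library stood above every vehicle library, and the means were 20.7 ± 2.26 and 10.9 ± 0.676 CPM. The log2 fold change was 0.91 (SE 0.08), a 1.88-fold higher level, and the THC mean lay between the vehicle means of the VTA and the PFC. Library FTL_344, whose sex genes went against its label, had the highest value, and without it the log2 fold change was 0.87 (SE 0.08). For 6530402F18Rik, the overlapping gene, the THC libraries averaged 12.7 ± 1.45 CPM and the vehicle libraries 7.38 ± 1.27 CPM, also without overlap, and with the counts of both genes summed the log2 fold change was 0.85 (SE 0.08), again as a choice made after the data were seen. Without library FTL_344 the THC mean of 6530402F18Rik was 12.3 ± 1.21 CPM and the log2 fold change of the sum was 0.81 (SE 0.08). The share of 6530402F18Rik in the sum was 35.7% to 44.2% with vehicle and 36.0% to 41.5% with THC, so the ranges overlapped.

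The other members moved less in the female Amy. Lrrc4c, the netrin-G1 ligand, had 77.0 to 91.4 CPM in vehicle libraries and 94.1 to 107 CPM in THC libraries, again without overlap, with a log2 fold change of 0.20 (SE 0.05). Such separation was not particular to the members. Among the marker genes, Slc17a7, Tbr1, Camk2a, Rspo2, Nr4a2, Ppp1r1b, Bcl11b and Slc1a2 also had 6 THC libraries above all vehicle libraries. Lhx6, Th and C1ql1 had 6 below all of them. The share of all genes that separated in this way is not given here, and nothing is read from the separation. Lrrc4, the netrin-G2 ligand, was at 57.0 ± 4.97 CPM with vehicle and 65.1 ± 2.44 CPM with THC, a log2 fold change of 0.18 (SE 0.06), with groups that overlapped. Ntng1 was at -0.10 (SE 0.11) and Lrrc4b at 0.02 (SE 0.06). Ntng2, chosen on this contrast, was the 1 member of 5 past both thresholds, where 1.57% of 17003 genes were, and nothing is read from this count. Without library FTL_344 that share of genes was 0.936%. The share of Ntng2 in netrin-G counts was 36.7% ± 4.25 with THC and 22.6% ± 3.26 with vehicle. Without library FTL_344 the share difference was 12.95 points in place of 14.1, and the log2 fold changes of Lrrc4c, Lrrc4, Ntng1 and Lrrc4b were 0.22, 0.18, -0.06 and 0.02.

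In the male Amy, Ntng2 had 12.6, 17.8, 14.1, 11.2, 11.96 and 10.9 CPM in the vehicle libraries and 11.5, 12.1, 16.1, 12.1, 9.91 and 15.7 CPM in the THC libraries. The ranges overlapped nearly whole, and the log2 fold change was -0.02 (SE 0.14, 95% interval -0.29 to 0.25, edgeR adjusted p = 1). Without library FTL_356, which had the 15.7 CPM, it was -0.08 (SE 0.14, adjusted p = 0.998). The other members were between -0.097 and -0.003 on the log2 scale, with 0 of 5 called by edgeR and by DESeq2 and 0 at an unadjusted p under 0.05, and between -0.12 and -0.01 without library FTL_356. The difference between the sexes in the Amy was not tested for the members, since the female values chose Ntng2. Of the 4 Amy groups Ntng1 had its widest spread in the male THC libraries, with library FTL_352 at 17.3 CPM and the other 5 between 31.4 and 45.6 CPM.

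**Figure D4:**
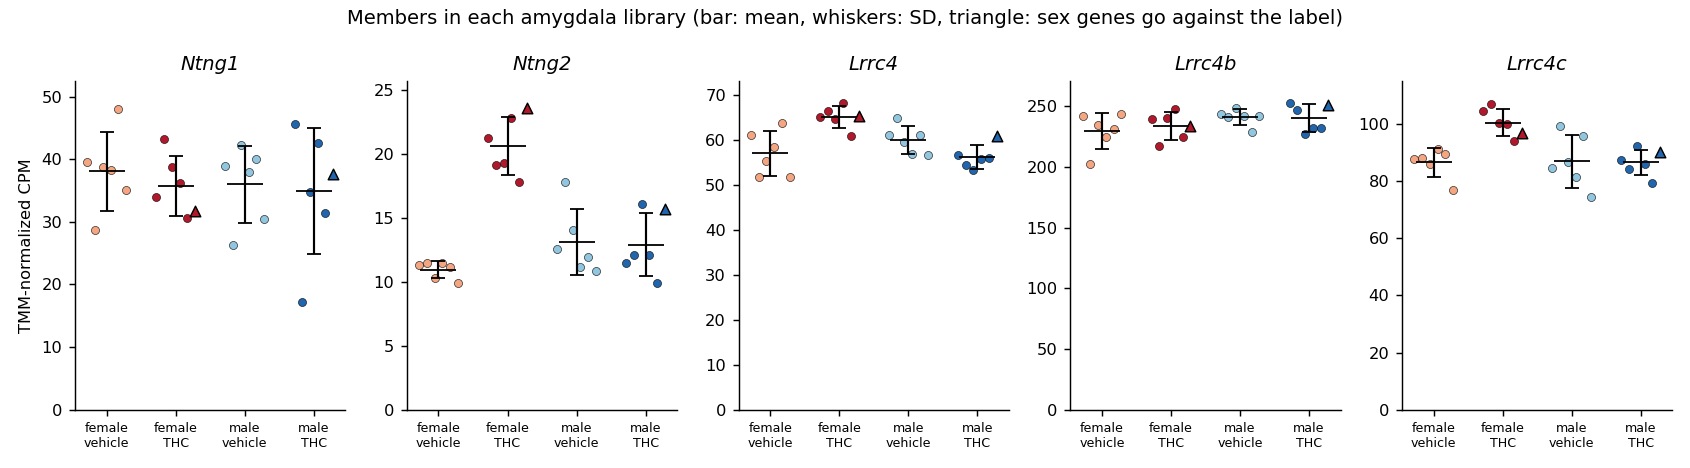
TMM-normalized CPM (vertical axis, from 0) of each member in every amygdala library by sex and treatment (horizontal axis), with a bar for the mean, whiskers for the SD, and triangles for the libraries labelled FTL_344 and FTL_356, whose sex genes go against the label. Among the members, Ntng2 and Lrrc4c have female THC libraries that all stand above the female vehicle libraries, as several marker genes also have. The male groups overlap for every member.

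Markers of several cell types also differed in level between the female Amy groups, and their counts past the thresholds are a description like the other values of that comparison. Of the 12 markers of cortical and basolateral projection neurons, 5 were called as higher with THC in the female Amy and 0 as lower, with a median log2 fold change of 0.59 beside -0.01 over all genes. Without library FTL_344 the count was 4 and the median 0.60. Their summed level was 1815 to 2845 CPM in female vehicle libraries and 2877 to 3718 CPM in female THC libraries, and none of the 12 was at 0 in any female Amy library. Slc17a7, the vesicular glutamate transporter of cortical neurons, averaged 870 CPM with THC and 511 CPM with vehicle, and Tbr1 45.5 and 23.7 CPM. Of the 10 medium spiny neuron markers 1 was called as higher by edgeR, and DESeq2 called 4. Their median log2 fold change was 0.43, with summed levels of 583 to 1176 CPM with vehicle and 949 to 1496 CPM with THC. Of the 10 markers of hypothalamus and medial amygdala (Esr1, Sim1, Otp and others) 1 was called as lower by edgeR, and DESeq2 called 5. Their median log2 fold change was -0.63, with summed levels of 101 to 130 CPM with vehicle and 75.1 to 102 CPM with THC, and Oxt was at 0 in 2 libraries. Without library FTL_344 the edgeR counts of these 2 lists were 0 higher and 1 lower, with medians of 0.48 and -0.82. The 8 oligodendrocyte markers had a median log2 fold change of -0.44 with 0 called by edgeR, and summed levels of 2410 to 7575 CPM with vehicle and 2609 to 4524 CPM with THC. Choroid plexus markers (Ttr, Folr1, Kl and Aqp1) divided the female Amy libraries within both groups. Their sum was 431.5 to 1120 CPM in 3 vehicle libraries and 2154 and 3450 CPM in 2 THC libraries, one of them FTL_344, and 8.04 to 11.4 CPM in the other 7. In those 7, Ntng2 was at 11.4 to 11.5 CPM with vehicle (3 libraries) and 19.1 to 22.8 CPM with THC (4 libraries). In the libraries with high sums it was at 9.89 to 11.1 CPM with vehicle (3 libraries) and 17.8 to 23.6 CPM with THC (2 libraries). All of these are values that chose Ntng2, and nothing is read from the division. The remaining 8 marker lists, from interneurons to endothelium, had medians between -0.12 and 0.06, and their summed levels overlapped between the groups. By edgeR, 1 of 7 dopaminergic neuron markers tested was called as higher and 1 as lower, and 1 of 4 claustrum markers as higher. Nr4a2 belongs to both of these lists. The other lists of the 8 had 0 called. Without library FTL_344 the 1 dopaminergic marker called as lower was no longer called. In the male Amy 0 markers of the projection neuron, medium spiny neuron and hypothalamus lists were called by edgeR or by DESeq2. Of these, 1, in the hypothalamus and medial amygdala list, had an unadjusted p under 0.05. The male summed levels of projection neuron markers ran from 1749 to 3061 CPM with vehicle and from 1951 to 3802 CPM with THC. The highest male value, 3802 CPM, was that of library FTL_356, which also had 453 CPM of choroid plexus markers, and without it the male THC sums of projection neuron markers ended at 2708 CPM. The part of these cell types in the difference of Ntng2 was not tested.

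**Figure D5:**
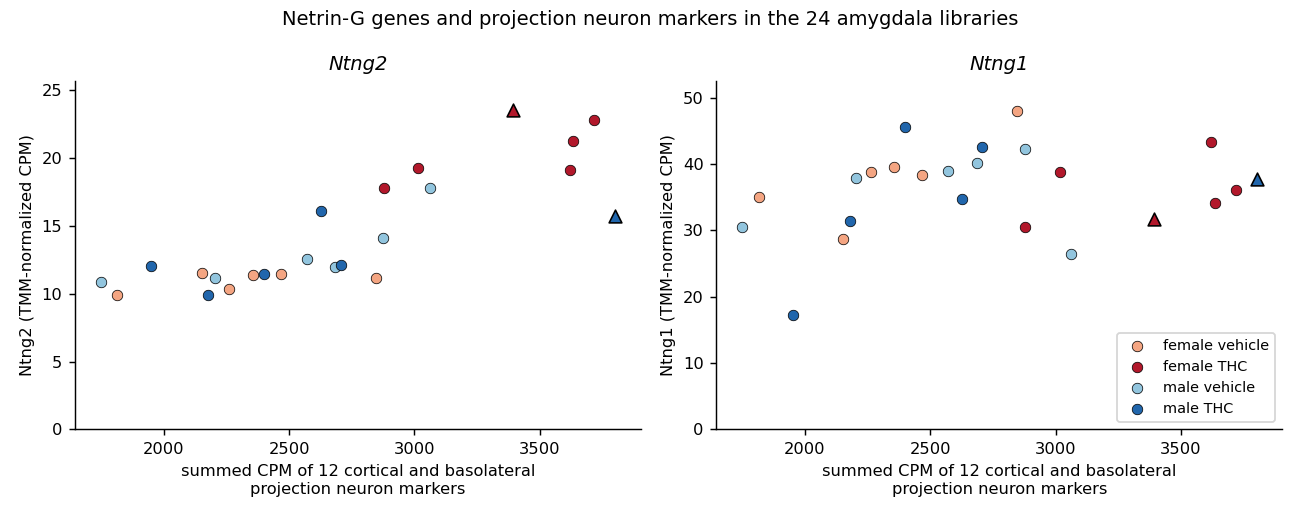
Ntng2 (left) and Ntng1 (right) in TMM-normalized CPM (vertical axes, from 0) against the summed CPM of 12 projection neuron markers (horizontal axes) in the 24 amygdala libraries, coloured by sex and treatment, with triangles for libraries FTL_344 and FTL_356. The female THC libraries, at 2877 to 3718 CPM of markers, hold 17.8 to 23.6 CPM of Ntng2, while their Ntng1 values, 30.5 to 43.3 CPM, lie within the range of the female vehicle libraries.

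The wider pathway was described in the same way. In the female Amy the 11 genes of classical netrins and their receptors had a median log2 fold change of 0.09, and the 18 other adhesion genes one of 0.12, beside -0.01 over all genes. Without library FTL_344 these medians were 0.07 and 0.12. In the other 9 comparisons 0 values of the 3 pathway lists were called by edgeR or by DESeq2. Of these values 26 (7.81%) had an unadjusted p under 0.05, within the range given above over all genes.

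The family shares were compared between THC and vehicle over the 9 groups that did not choose Ntng2, as 36 exact two-sided permutation tests of the difference in mean share, adjusted together. None passed, with a lowest adjusted p of 0.234, and 4 had an unadjusted p under 0.05, where 6 against 6 libraries can reach 0.00217 and 6 against 5 can reach 0.00433. The lowest was that of Lrrc4 in the female PFC, which made up 22.4% ± 0.532 of ligand counts with vehicle and 21.4% ± 0.499 with THC (exact permutation p = 0.0108, adjusted 0.234). Lrrc4 also had a lower mean share with THC in the female DMS (-1.22 points) and in the male Amy (-0.796 points), and Lrrc4c a higher one in the female VTA (1.86 points), each with an adjusted p of 0.234 in the exact permutation test. Without library FTL_356 the male Amy difference of Lrrc4 was -0.890 points. In the male Amy the share of Ntng2 was 28.1% ± 7.77 with THC and 27.0% ± 6.67 with vehicle (exact permutation p = 0.760, adjusted 0.954), a difference that was 0.840 points without library FTL_356.

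The last comparisons concern sex. Of the 20 member values of males against females outside the Amy, with treatment in the model, 0 were called by edgeR and 0 by DESeq2, and 3 had an unadjusted p under 0.05. Over all genes that share was 7.16% (VTA) to 27.8% (DMS) in these regions. Over all genes the PFC had 0.240% called, the DMS 2.64%, the NAc 0.243%, the Amy 0.0120% and the VTA 0.109%. The Amy share comes from a fit that holds libraries FTL_344 and FTL_356, whose sex genes go against the label. It is not given without them and is no measure of sex differences in the Amy. The 20 values stayed between -0.16 and 0.09 on the log2 scale, and the lowest edgeR adjusted p was 0.0710, for Lrrc4 in the DMS at -0.08 (SE 0.03). The log2 fold changes of Ntng2 in these 4 regions were -0.07 to -0.13. The Amy values include the female libraries that chose Ntng2 and are given without a test. They were -0.20 (SE 0.12) for Ntng2, -0.10 for Lrrc4c, -0.06 for Lrrc4 and Ntng1, and 0.06 for Lrrc4b. Without libraries FTL_344 and FTL_356 the value of Ntng2 was -0.17 (SE 0.13), and those of Ntng1 and Lrrc4b were -0.09 and 0.06.

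The sex x treatment interaction was tested in the PFC, DMS, NAc and VTA, where the share of all genes called was 0% in each. Of the 20 member values 0 were called by edgeR and 0 by DESeq2, and 4 had an unadjusted p under 0.05, where 5.87% (PFC) to 11% (NAc) of all genes did. Lrrc4 in the DMS had an interaction of 0.19 on the log2 scale (SE 0.05, edgeR adjusted p = 0.436), from -0.14 in females and 0.05 in males. Lrrc4c was at 0.20 (SE 0.08, adjusted p = 0.398) in the NAc and at -0.20 (SE 0.09, adjusted p = 0.780) in the VTA. The widest value was that of Ntng1 in the VTA, -0.42, which had an unadjusted p above 0.05.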

How the data were processed

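RNA from tissue punches was made into stranded polyA libraries and sequenced as paired reads of 100 bases. The authors trimmed reads with cutadapt 2.9, aligned them to mm10 with STAR 2.7.3a and deposited RSEM 1.3.1 expected counts per gene, in 2 tables (PFC and DMS, and NAc, Amy and VTA), per the labels and the submitters' processing notes. The annotation release is not given in the sources used here. All library columns were used (0 left out), whereas the study's methods describe a male VTA sample detected as an outlier and removed, without naming it. Expected counts were rounded, genes with low counts were filtered with filterByExpr, and edgeR 4.0.16 quasi-likelihood tests with TMM scaling (R 4.3.3) were run on all genes, with Benjamini-Hochberg adjustment, for THC against vehicle (by region and by sex), males against females, sex x treatment, and regions among vehicle libraries. DESeq2 1.42.0 was an alternative. Shares were tested by permutation with SciPy 1.17.1 (Python 3.11.15). Intervals are 1.96 SE. The fits were tested on simulated data. Genes named beyond the members include the 5 most correlated with each, list genes called, and marker genes. Members and lists were chosen with earlier results of these data known, and summing Ntng2 with 6530402F18Rik was added after seeing the data. No 2 libraries of a group agreed within sampling noise (295 pairs). The p-values measure the spread between libraries. Some results of the gene lists are not reported here.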

Additional observations from a re-analysis of the deposited data

Results flagged for a closer look

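In 8 of 100 combinations of member and group, 1 library stood apart from the rest of its group by Dixon's criterion, which chance meets in about 1 in 20 groups. Lrrc4b was at 164.5 CPM in female PFC vehicle library FTL_261, with the other 5 libraries at 181.1 to 187.1 CPM, and at 276.2 CPM in male NAc vehicle library FTL_323, with the others at 219.3 to 232.2 CPM. Lrrc4c was at 76.98 CPM in female Amy vehicle library FTL_338 (others 86.09 to 91.41 CPM), at 62.22 CPM in female VTA THC library FTL_363 (others 47.05 to 51.5 CPM) and at 170.8 CPM in male PFC vehicle library FTL_277 (others 149.8 to 157.2 CPM). Ntng1 was at 20.68 CPM in female NAc vehicle library FTL_314 (others 12.72 to 15.58 CPM), at 9.654 CPM in male DMS THC library FTL_305 (others 10.98 to 11.68 CPM) and at 15.18 CPM in male DMS vehicle library FTL_301 (others 9.371 to 11.28 CPM). None of the 8 was a value of Ntng2 or Lrrc4.

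The noncoding gene 6530402F18Rik, which is no member, averaged 12.69 CPM in the female Amy THC libraries, above each of the 6 female Amy vehicle libraries.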

How the results depend on the processing

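Counts of members called changed under 1 alternative, THC in place of vehicle libraries, from 3 to 2 (DMS versus NAc) and from 4 to 3 (Amy versus VTA), and under none of the others run (no filter on low counts, DESeq2, DESeq2 size factors, 1 fit per region, libraries left out, summed counts). Of the alternative values, 33 fold changes and 9 share differences turned direction, and the causes were not tested. With 1 library left out, log2 fold changes of THC ranged in the male Amy from -0.137 to 0.096 (Ntng1), -0.095 to 0.096 (Ntng2), -0.02 to 0.014 (Lrrc4b) and -0.052 to 0.032 (Lrrc4c), and in the male VTA from -0.128 to 0.018 (Ntng1), -0.085 to 0.009 (Lrrc4), -0.024 to 0.038 (Lrrc4b) and -0.055 to 0.021 (Lrrc4c). Males against females in the VTA ranged from -0.058 to 0.006 (Ntng1) and -0.009 to 0.033 (Lrrc4). Share differences ranged from -1.501 to 3.784 (Ntng2) and -0.2979 to 0.6876 points (Lrrc4c) in the male Amy, and from -0.4631 to 0.03616 (Lrrc4) and -0.3992 to 0.2173 points (Lrrc4c) in the male VTA. Ntng2 in the female Amy stayed between 0.867 and 0.934. DESeq2 size factors gave Lrrc4b log2 fold change, THC versus vehicle, male VTA, as -0.002. Summed counts, chosen after seeing the data and holding reads of 6530402F18Rik alone as well, took the Ntng2 share difference of DMS versus Amy past the threshold at 10.76 points. They gave Ntng2 0.811 in the female Amy without library FTL_344, and gave 0.018 in the male PFC, 0.023 in the male Amy and, as Ntng2 of Ntng2+Ntng1 share, THC minus vehicle, male PFC, 0.3754 points. With THC in place of vehicle libraries, Lrrc4 was at -0.097 (DMS versus Amy) and Ntng2 at 0.106 (Amy versus VTA), Lrrc4c fell below the fold threshold at 0.341 (DMS versus NAc) and 0.34 (NAc versus Amy), Ntng2 passed it at -0.815 (NAc versus Amy), and the Ntng2 share of netrin-G counts, DMS versus Amy, was -0.7972 points. These libraries include the female Amy THC libraries that chose Ntng2. No paired analysis was possible because the labels do not say which libraries come from the same mouse, and the groups compared share no library numbers. Ntng2 had the fewest counts (62 in the shallowest library), which limits its precision.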
